A study of Mus musculus with 4 samples.

Results

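The genes described here encode the matrix metalloproteases (MMPs), the ADAMTS proteases and the tissue inhibitors of metalloproteases (TIMPs). They were taken by symbol from the deposited expression table, as every row beginning with Mmp, Adamts or Timp followed by its number, which gave 46 of 32230 rows: 23 Mmp, 19 Adamts and 4 Timp genes. MMPs and ADAMTS proteases are zinc enzymes that are made as inactive precursors and cut collagens, proteoglycans and other proteins of the extracellular matrix once a propeptide is removed. TIMPs bind the active site of these enzymes and block it, so that matrix turnover depends on the balance of proteases and inhibitors. Fibroblasts are a main source of these families in connective tissue.

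Polyadenylated RNA was sequenced from mouse embryonic fibroblasts called 4F2A, in which doxycycline switches on a transgene for Oct4, Sox2, Klf4 and Myc, the factors that start reprogramming to pluripotency. The cells came from male homozygous mid-gestation embryos, listed at the same age for both groups, and were collected on day 2. One group had received CX-5461, an inhibitor of RNA polymerase I, for 1 h on day 0, and the other DMSO, its vehicle, for the same time. Both groups had doxycycline at 2 µg/mL for 48 h and LIF, and each had 2 libraries, numbered 2 and 3. No label states that a group's libraries were separate cultures, and the spread behind each p-value may therefore be technical. In a bulk sample, fewer cells of a type and less RNA per cell cannot be told apart.

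Values are TPM, a unit that divides reads by gene length and scales every library to the same total. Recovered read numbers, in units of 1000000, were 35.2 and 35.0 in the CX-5461 libraries and 35.2 and 37.3 in the DMSO libraries. Transcripts of the mitochondrial genome took 9.20% and 9.24% of TPM with CX-5461, against 9.96% and 15.3% in DMSO replicates 2 and 3. Each of the 11 genes called below also passed after rescaling without these transcripts and the 20 highest genes. Summed over 10 fibroblast markers, TPM was 10119 and 9583 in CX-5461 libraries and 13369 and 10685 in DMSO libraries. With CX-5461, 5 of the 10 fell, beside 8.21% lower over all genes tested. Markers of other cell types were present in part and some of them changed. The leukocyte gene Aif1 and the muscle genes Myod1 and Myog were at 0 in every library. Of 2 endothelial genes tested, Kdr rose (log2 difference 1.78, limma adjusted p = 0.000729) and Tek fell (-0.39, 0.0299). Of 2 muscle genes tested, Des rose (0.57, 0.0229) and Acta1 fell (-1.45, 0.00586), and of 3 osteoblast genes tested, Bglap rose (1.22, 0.0383). Of 6 macrophage genes tested 1 rose, and none of the tested keratinocyte, chondrocyte or neural genes passed. Over all genes tested, 11.6% were higher and 8.21% lower. The part of any of these markers in the results below was not tested.

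Differences below are the CX-5461 mean minus the DMSO mean of log2(TPM + 1), on which changes of low genes look too small, with limma's standard error (SE). Means are given with SD over n = 2 libraries, and a gene is said to rise or fall where limma's adjusted p was under 0.05 over all genes tested. Of the 46 genes, 28 reached the required mean of 1 TPM and were tested, and 18 did not. Among the 28, 5 rose (Mmp15, Mmp12, Mmp24, Mmp2 and Timp1), 6 fell (Adamts4, Adamts3, Adamts14, Adamts12, Adamts7 and Mmp11) and 17 did not pass. That is 39.3% called, 17.9% higher and 21.4% lower, beside a background of 19.8% called, 11.6% higher and 8.21% lower, over the 14621 genes tested. Over all genes, 1694 were higher and 1201 lower with every library, and 320 and 411 without CX-5461 replicate 2, 245 and 379 without CX-5461 replicate 3, 2087 and 899 without DMSO replicate 2, and 954 and 849 without DMSO replicate 3. The median difference was -0.04 for the 28 genes and 0.07 for all genes tested. Of 14 tested Mmp genes, 4 rose and 1 fell (median 0.24), whereas of 11 tested Adamts genes none rose and 5 fell (median -0.50). The difference between families was not tested. Groups did not overlap for 25 of the 28 genes, or 89.3%, against 64.5% of all genes tested. Mmp12 and Mmp10 reached the test only through their CX-5461 libraries, since their DMSO means were under 1 TPM.

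**Figure D1:**
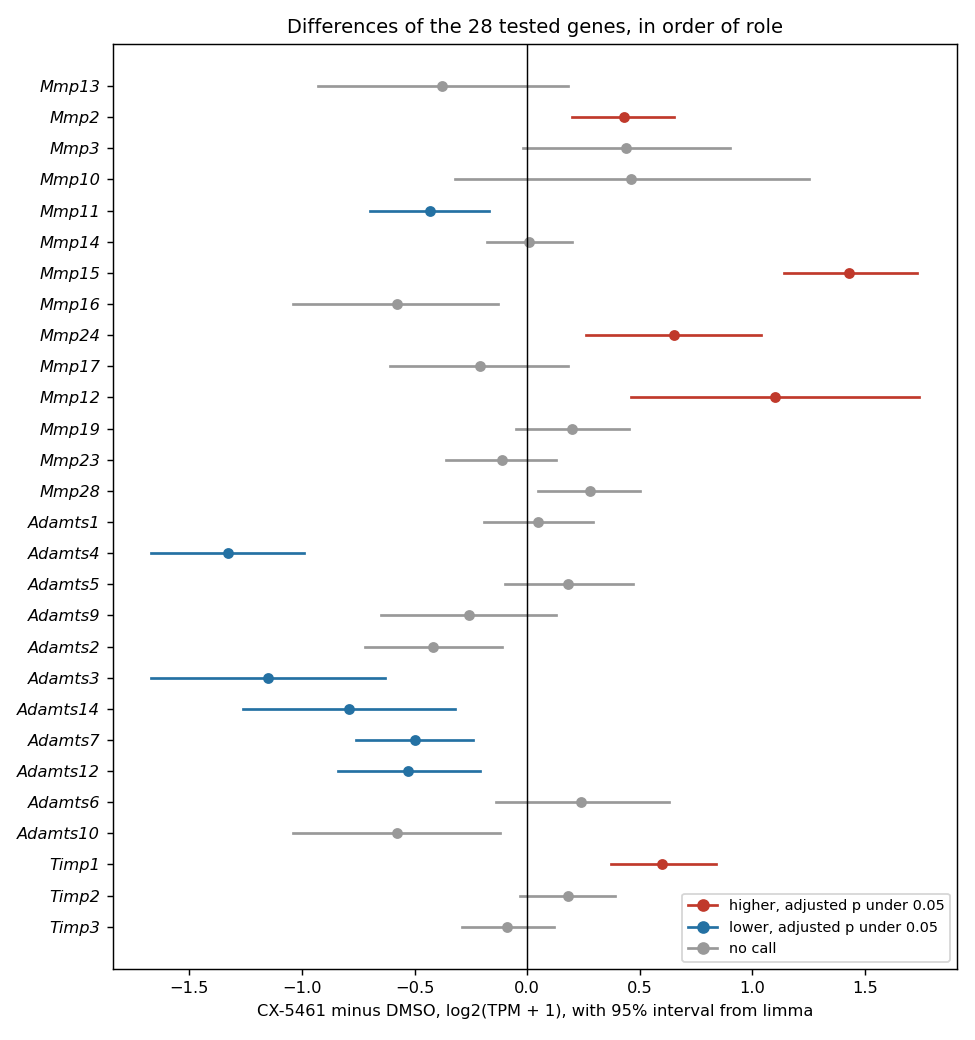
Difference of CX-5461 from DMSO in log2(TPM + 1) for the 28 tested genes, ordered by role from collagenases at the top to TIMPs at the bottom. Points are estimates from 2 libraries a group, lines are 95% intervals from limma, and colour marks higher (red), lower (blue) or no call (grey). Mmp15 at 1.43 and Adamts4 at -1.33 lie farthest out, and the blue points are mostly Adamts genes.

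On the log2(TPM + 1) scale the difference farthest from 0 was that of Mmp15, which encodes a membrane-type MMP anchored by a transmembrane helix and able to cut matrix at the cell surface. Mmp15 (chromosome 8, 95352268 to 95375080, mm10) was at 45.4 and 45.7 TPM in the CX-5461 libraries, against 17.9 and 14.7 TPM in the DMSO libraries. Both CX-5461 values were far above both DMSO values, and the ratio of means was 2.79 (log2 difference 1.43, SE 0.12, limma adjusted p = 0.00172). It passed whichever library was left out, with adjusted p from 0.00875 to 0.0298. Mmp24, another transmembrane protease, studied mostly in the nervous system (chromosome 2, 155775342 to 155818366), had 5.65 and 5.87 TPM with CX-5461 and 3.22 and 3.39 TPM with DMSO. The groups lay apart, and Mmp24 rose by 0.65 (SE 0.16, limma adjusted p = 0.0377). Its call ended without CX-5461 replicate 2 (adjusted p = 0.161) or 3 (0.207), without DMSO replicate 2 (0.0889) or 3 (0.0944), and without the filter on low values (0.0621). Mmp24 shares 637 exonic bases with BC029722 on the opposite strand. BC029722 stood at 75.7 and 67.9 TPM with CX-5461 and 37.7 and 46.1 TPM with DMSO (log2 difference 0.77, limma adjusted p = 0.0125). Whether the counting used strand is not given in the sources used here, so reads of the pair may not be separated.

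Mmp14, the membrane-type enzyme that activates the Mmp2 precursor, had the highest mean of the proteases over the 4 libraries. It stood at 474 and 452 TPM with CX-5461 and at 456 and 463 TPM with DMSO. The groups overlapped, and the difference of 0.01, whose sign turned under other scalings, had a 95% interval of -0.18 to 0.20 (limma adjusted p = 0.934). Mmp16, also a transmembrane enzyme, had 10.9 and 7.91 TPM with CX-5461, against 13.1 and 15.8 TPM with DMSO. Its groups lay apart, but the difference of -0.58 did not pass (limma adjusted p = 0.0781), though it did with voom, limma's fit for counts, on recovered reads (0.00513). Mmp17, which is held in the membrane by a lipid anchor, had 13.4 and 10.8 TPM with CX-5461 and 15.7 and 12.8 TPM with DMSO. These values overlapped and did not pass (log2 difference -0.21, adjusted p = 0.389). Of the 4 transmembrane genes, then, 2 rose and none fell, with a median difference of 0.33, beside 11.6% higher, 8.21% lower and a median of 0.07 over all genes tested.

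Mmp2 encodes gelatinase A, which cuts denatured collagen and basement membrane collagen. Mmp2 (chromosome 8, 92827291 to 92853420) was at 497 and 516 TPM in CX-5461 libraries and at 398 and 355 TPM in DMSO libraries. Both CX-5461 values were higher, and Mmp2 rose by 0.43 (SE 0.09, limma adjusted p = 0.0269). That call ended without CX-5461 replicate 2 (adjusted p = 0.171) or 3 (0.233), without the filter (0.0557) and without limma's trend and robust options (0.0737). The other gelatinase, Mmp9, was barely present, at 0.496 and 0.280 TPM with CX-5461 and 0.495 and 0.342 TPM with DMSO, or 10 to 18 reads a library. Mmp2 lay above Mmp14 in both CX-5461 libraries and below it in both DMSO libraries.

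Mmp11 encodes stromelysin 3, which is activated inside the cell by furin rather than outside it. It was the one Mmp gene that fell. Mmp11 (chromosome 10, 75923222 to 75936496) had 46.5 and 40.0 TPM with CX-5461, against 60.3 and 56.9 TPM with DMSO. The groups lay apart, with a difference of -0.43 (SE 0.11, limma adjusted p = 0.0407). The call ended without CX-5461 replicate 2 (adjusted p = 0.105) or 3 (0.267), without DMSO replicate 2 (0.102) or 3 (0.0898), without the filter (0.0813) and without the trend and robust options (0.0878). Mmp11 shares 155 exonic bases with Chchd10 on the opposite strand, which had 12.0 and 13.2 TPM with CX-5461 and 17.1 and 15.8 TPM with DMSO.

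**Figure D2:**
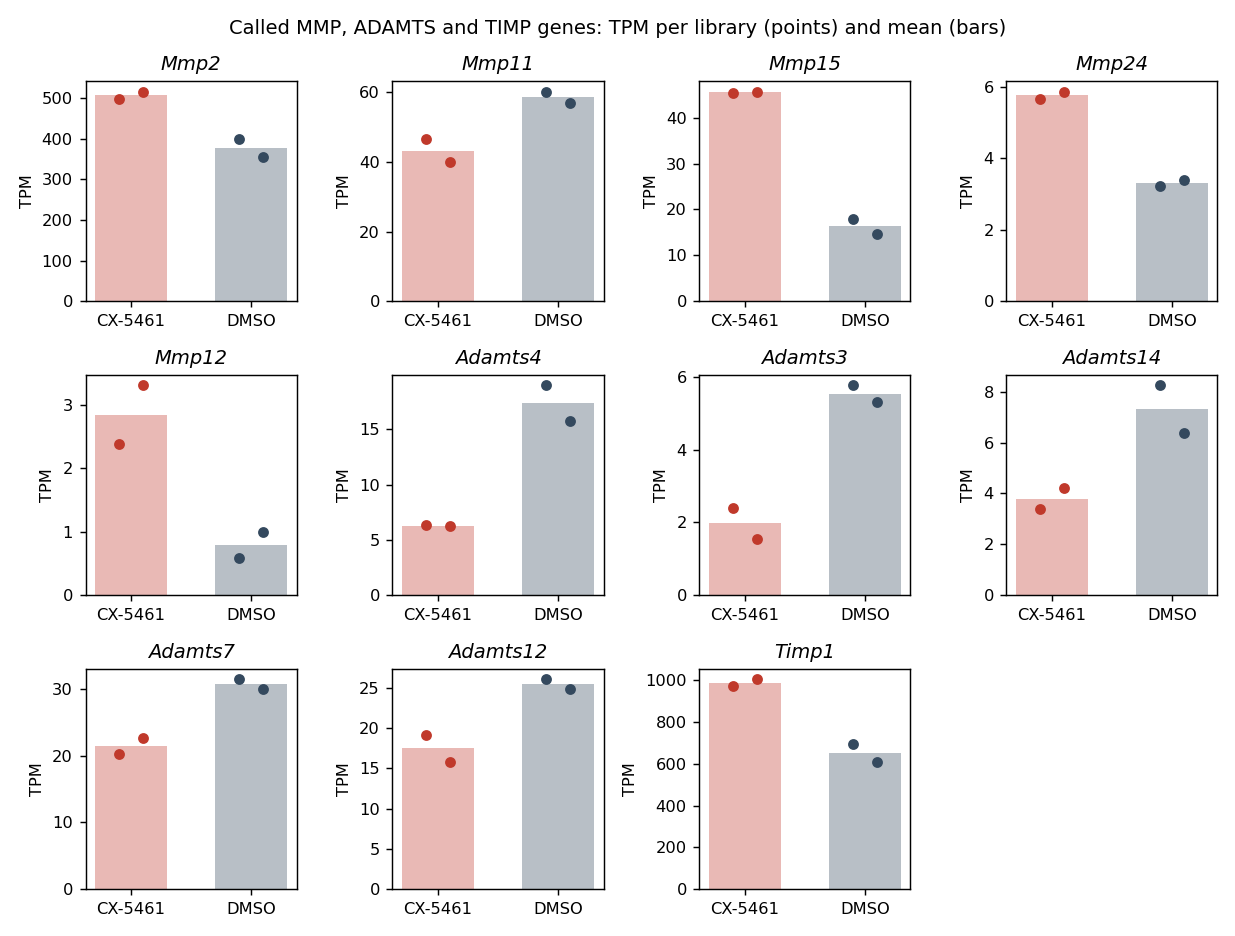
TPM of the 11 genes that passed, 1 panel each, with CX-5461 at left and DMSO at right. Points are the 2 libraries of a group and bars their mean, on axes that start at 0. In every panel the points of the groups lie apart, by a wide gap for Mmp15 and Adamts4 and a narrower one for Mmp11 and Mmp2.

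Of the 23 Mmp genes, 10 lie side by side on chromosome 9 (7272514 to 7699585, 427 kb), among them the collagenases, stromelysins 1 and 2 and macrophage elastase. Induction of several of these genes by growth factors and cytokines is classically ascribed to AP-1, a dimer of Fos and Jun proteins. AP-1 binds TGAGTCA or TGACTCA, and the search here took any central base (TGANTCA). RefSeq promoters (GRCm38.p6), from 250 bases before to 50 bases after each start, were found for 32 of the 46 genes. The 14 genes without one all lie outside the cluster, among them Mmp2, Mmp9, Adamts4 and Adamts7, and were not examined. TGANTCA reads the same on both strands. It was present for 8 of the 10 cluster genes and for 0 of the 22 genes elsewhere that had a promoter. Of 27025 genes with such promoters, 8.97% held it. In all but Mmp20, where the central base is A, the match was TGAGTCA or TGACTCA. The 8 matches are shown to let their place and flanks be compared, in the direction of transcription, with the motif in capitals and 25 bases on each side. The matches began between 35 and 95 bases before the start. For Mmp12 and Mmp7, which have 2 promoters each in RefSeq, only 1 held a match.
Mmp13, chr9:7272454-7272510, plus strand: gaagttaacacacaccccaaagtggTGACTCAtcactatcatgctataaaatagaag
Mmp12, chr9:7347305-7347361, plus strand: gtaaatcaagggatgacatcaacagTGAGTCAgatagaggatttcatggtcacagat
Mmp1b, chr9:7388088-7388144, minus strand: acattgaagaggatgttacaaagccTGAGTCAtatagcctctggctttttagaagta
Mmp3, chr9:7445751-7445807, plus strand: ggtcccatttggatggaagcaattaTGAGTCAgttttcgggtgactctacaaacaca
Mmp1a, chr9:7464043-7464099, plus strand: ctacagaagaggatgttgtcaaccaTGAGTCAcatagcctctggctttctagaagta
Mmp10, chr9:7502254-7502310, plus strand: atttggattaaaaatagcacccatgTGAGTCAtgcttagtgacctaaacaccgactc
Mmp20, chr9:7628111-7628167, plus strand: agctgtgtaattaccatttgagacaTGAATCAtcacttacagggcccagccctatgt
Mmp7, chr9:7692002-7692058, plus strand: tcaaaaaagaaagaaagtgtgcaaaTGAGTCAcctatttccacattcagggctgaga
A match is a description of the letters and not evidence of binding.

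Of the 10 cluster genes, 4 were high enough to be tested and 1 of these passed, beside 19.8% of all genes tested. Mmp12, which encodes macrophage elastase (chromosome 9, 7344381 to 7369499), had 2.38 and 3.31 TPM with CX-5461 and 0.591 and 0.998 TPM with DMSO. In reads this was 177 and 241.5 with CX-5461 and 44 and 83.5 with DMSO. Mmp12 reached the test only through its CX-5461 libraries, since its DMSO mean was 0.795 TPM. The groups lay apart, the ratio of means was 3.58, and Mmp12 rose by 1.10 (SE 0.26, limma adjusted p = 0.0360). That of Mmp12 ended without CX-5461 replicate 2 (adjusted p = 0.111) or 3 (0.219), without DMSO replicate 2 (0.102) or 3 (0.0769), and without the filter (0.0606). Mmp12 shares 157 exonic bases with Mmp1b on the opposite strand, which was at 0.269 and 0.445 TPM with CX-5461 and 0.201 and 0.388 TPM with DMSO.

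Macrophage markers were set beside Mmp12. Summed over 8 of them, TPM was 99.8 and 120 in CX-5461 libraries, against 85.0 and 95.6 in DMSO libraries. Of the 6 tested, 1 rose, namely Adgre1, a surface marker of macrophages, at 10.4 and 8.98 TPM with CX-5461 and 4.48 and 4.99 TPM with DMSO (log2 difference 0.90, limma adjusted p = 0.0137). Cd68, Csf1r, Tyrobp, Fcer1g and Itgam were also expressed, at 4.25 to 52.6 TPM over the 4 libraries. Their differences, from 0.17 to 0.36, were all above 0 but did not pass. Over all genes tested, 11.6% were higher, and 8404 of 14621 had a difference above 0. Ptprc, the leukocyte marker CD45, lay between 0.656 and 1.27 TPM in the 4 libraries, and Aif1 was at 0 in all of them. Their part in the Mmp12 result was not tested.

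The remaining cluster genes did not pass. Mmp3, stromelysin 1, which also activates other MMP precursors, was the highest of the cluster at 20.6 and 27.3 TPM with CX-5461 and 19.7 and 15.0 TPM with DMSO (log2 difference 0.44, limma adjusted p = 0.156). Mmp13, the main interstitial collagenase of rodents, stood at 4.19 and 6.72 TPM with CX-5461 and 6.81 and 7.64 TPM with DMSO (log2 difference -0.38, adjusted p = 0.282). The groups barely separated for Mmp13, and in the opposite direction to Mmp3. Mmp10, stromelysin 2, had 2.15 and 0.979 TPM with CX-5461 and 0.678 and 0.954 TPM with DMSO (log2 difference 0.46, adjusted p = 0.349). Its CX-5461 mean rested on replicate 2, and the difference was 0.13 without that library. Mmp1a, Mmp1b, Mmp8 and Mmp27 had at most 11 reads in any library, and Mmp20, the enamel protease, and Mmp7, matrilysin, were listed at 0 in all 4. Matches to TGANTCA stood in promoters of genes at 0 as well as of the highest genes of the cluster. The part of these matches in expression was not tested.

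**Figure D3:**
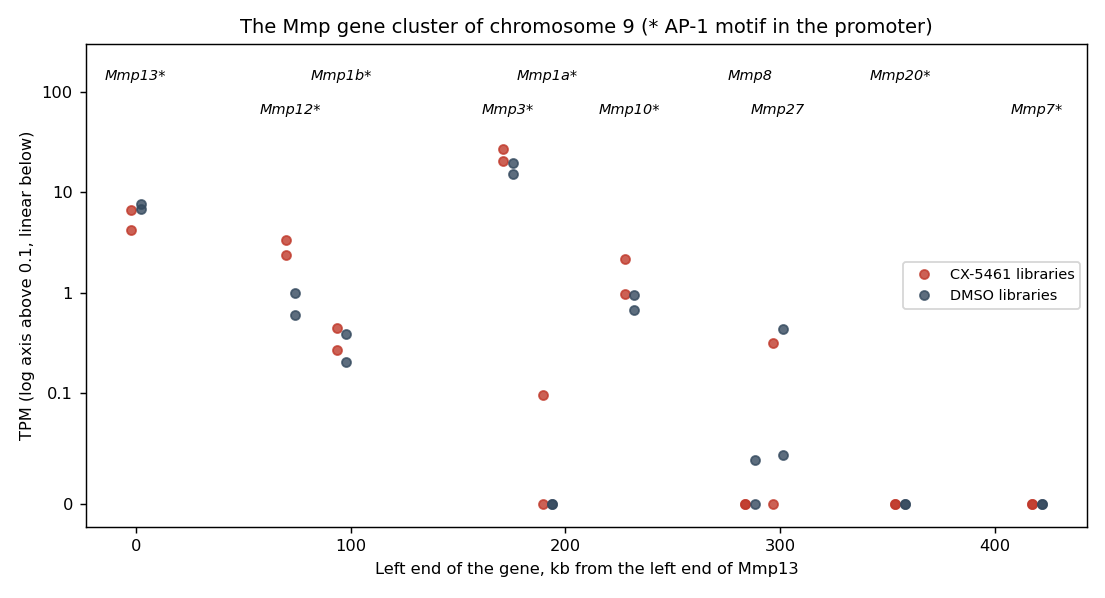
TPM of the 10 Mmp genes of the chromosome 9 cluster against the left end of each gene, in kb from that of Mmp13. Red points are CX-5461 libraries and dark points DMSO libraries, on a log axis above 0.1 TPM and a linear one below. An asterisk marks a match to TGANTCA in the promoter, which for Mmp20 is TGAATCA. The groups do not overlap for Mmp12, Mmp3, Mmp13 and Mmp10, as for 64.5% of all genes tested, and only Mmp12 passed. The nearest values for Mmp13 were 6.72 TPM with CX-5461 and 6.81 TPM with DMSO. For Mmp10 they were 0.979 TPM with CX-5461 (17 reads) and 0.954 TPM with DMSO (19 reads). Mmp20 and Mmp7, both marked, lie at 0.

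Outside the cluster, Mmp28, Mmp19 and Mmp23 were also moderately expressed, and none of them passed. Mmp28, epilysin, had 37.4 and 37.3 TPM with CX-5461 and 31.7 and 29.6 TPM with DMSO (log2 difference 0.28, limma adjusted p = 0.0870). Mmp19 had 25.2 and 24.3 TPM with CX-5461 and 22.4 and 20.6 TPM with DMSO (0.20, adjusted p = 0.220). For Mmp28 and Mmp19 both CX-5461 values lay above both DMSO values. Mmp23, which is cut from the membrane on its way to the surface, had 27.9 and 28.4 TPM with CX-5461, against 32.2 and 28.9 TPM with DMSO (-0.11, adjusted p = 0.463). Mmp28 and Mmp19 share 466 and 789 exonic bases with 1700020L24Rik and Tmem198b on the opposite strand, and their values are uncertain to that extent.

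ADAMTS proteases are secreted and bind matrix through thrombospondin repeats. The proteoglycan-cutting members behaved unlike each other. Adamts4, an aggrecanase (chromosome 1, 171250421 to 171260637), was at 6.31 and 6.25 TPM with CX-5461, against 19.0 and 15.7 TPM with DMSO. Both CX-5461 values were well below both DMSO values, and Adamts4 fell by 1.33 on the log2 scale (SE 0.14, limma adjusted p = 0.00322), the DMSO mean being 2.77 times the CX-5461 mean. It passed whichever library was left out (adjusted p from 0.0172 to 0.0395), as only Mmp15 did besides.

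Adamts5, the other aggrecanase, went the other way in sign, at 72.5 and 60.2 TPM with CX-5461 and 59.9 and 56.2 TPM with DMSO, without passing (log2 difference 0.18, limma adjusted p = 0.306). Adamts1, which cuts versican and aggrecan and lies next to Adamts5 on chromosome 16, was the most abundant Adamts gene. It stood at 163 and 144 TPM with CX-5461 and 153 and 142 TPM with DMSO, overlapping between groups (log2 difference 0.05, with a sign that turned under other scalings, 95% interval -0.19 to 0.29, adjusted p = 0.727). Adamts9, a versican-cutting enzyme, had 5.57 and 4.64 TPM with CX-5461 and 6.34 and 6.26 TPM with DMSO (-0.26, adjusted p = 0.286). Adamts20, its closest relative, fell short of the test, with 10 and 4 reads in the CX-5461 libraries, against 92 and 47 reads in the DMSO libraries. Without the filter its difference was -0.66 with adjusted p = 0.118. Adamts15 and Adamts8, also too low to test, had 53 and 58, and 14 and 6 reads with CX-5461, against 119 and 98, and 17 and 38 reads with DMSO. Adamts20, Adamts15 and Adamts8 thus had fewer reads with CX-5461 in every pairing of libraries. The other untested Adamts genes, Adamts13 and Adamts16 to Adamts19, overlapped between groups. Among all genes tested, groups did not overlap for 64.5%, in either direction.

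The procollagen N-propeptidases Adamts2, Adamts3 and Adamts14 trim the amino end of fibrillar procollagens so that fibrils can form, and all 3 were below DMSO. Adamts3 (chromosome 5, 89677087 to 89883334) had 2.40 and 1.55 TPM with CX-5461, against 5.77 and 5.30 TPM with DMSO. The groups lay far apart, and Adamts3 fell by 1.15 (SE 0.21, limma adjusted p = 0.0178). The call ended without CX-5461 replicate 3 (adjusted p = 0.105), DMSO replicate 2 (0.0718) or DMSO replicate 3 (0.0768), and was 0.0492 without CX-5461 replicate 2. Adamts14 (chromosome 10, 61197112 to 61273438) had 3.37 and 4.22 TPM with CX-5461, against 8.25 and 6.39 TPM with DMSO, and fell by 0.79 (SE 0.19, adjusted p = 0.0378). Its call ended without CX-5461 replicate 2 (0.183) or 3 (0.123), without DMSO replicate 2 (0.121) or 3 (0.0675) and without the filter (0.0767), and its adjusted p rounded to 0.05 without the trend and robust options, just past the threshold. Adamts2, the most abundant of these enzymes, had 25.1 and 26.7 TPM with CX-5461 and 38.4 and 31.6 TPM with DMSO. Its groups lay apart, yet the difference of -0.42 did not pass (adjusted p = 0.0662). It did pass without DMSO replicate 3 (0.0461) and with voom (0.00169). With libraries scaled by median of ratios (0.0221), by quantiles (0.0218) or without the highest genes (0.02) it passed as well.

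Adamts7 and Adamts12, which form a structural pair and cut cartilage oligomeric matrix protein, both fell. Adamts7 (chromosome 9, 90163069 to 90208071) was at 20.2 and 22.7 TPM with CX-5461 and 31.5 and 29.98 TPM with DMSO (log2 difference -0.50, SE 0.10, limma adjusted p = 0.0253). Adamts12 (chromosome 15, 11064790 to 11349231) was at 19.2 and 15.7 TPM with CX-5461 and 26.1 and 24.9 TPM with DMSO (-0.53, SE 0.13, adjusted p = 0.0376). For both genes every CX-5461 value lay below every DMSO value. Without CX-5461 replicate 2 or 3 and DMSO replicate 2 or 3 in turn, the adjusted p was 0.170, 0.115, 0.0682 and 0.0680 for Adamts7, and 0.0825, 0.223, 0.106 and 0.105 for Adamts12. Neither passed without the filter (0.0536 and 0.0778) or without the trend and robust options (0.0540 and 0.0705). Adamts7 shares 122 exonic bases with Tbc1d2b on the opposite strand, at 31.0 and 32.1 TPM with CX-5461 and 40.5 and 36.1 TPM with DMSO. Comp, the gene of that substrate, was low, at 1.05 and 2.44 TPM with CX-5461 and 1.11 and 0.729 TPM with DMSO.

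Adamts10 and Adamts6, homologous enzymes linked to fibrillin microfibrils, did not pass. Adamts10 had 11.3 and 8.32 TPM with CX-5461, against 16.9 and 13.4 TPM with DMSO (log2 difference -0.58, limma adjusted p = 0.0825). With libraries scaled by median of ratios (0.0492) or without the highest genes (0.0404) it passed, as it did with voom (0.00348). Adamts6 had 7.496 and 8.04 TPM with CX-5461 and 7.12 and 5.73 TPM with DMSO (0.24, adjusted p = 0.321), so the pair differed in sign. Adamts13, the protease of von Willebrand factor made mainly by liver, and Adamts16 to Adamts19 were too low to test, and the highest of these was Adamts17 at 39 to 112 reads. Of the 11 tested Adamts genes, 8 had a difference below 0, beside 6217 of the 14621 genes tested. The Adamts genes called lay between -1.33 and -0.50.

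The inhibitors were far more abundant than the proteases. Timp1 to Timp4 together came to 3997 and 4046 TPM in CX-5461 libraries and 3475 and 3510 TPM in DMSO libraries, against 1214 and 1208 TPM with CX-5461 and 1080.3 and 1027 TPM with DMSO for all 23 Mmp genes. The ratio of the sums was 3.29 and 3.35 with CX-5461 and 3.22 and 3.42 with DMSO, so it overlapped between groups. Summed Adamts TPM was 338 and 304 with CX-5461 and 376 and 341 with DMSO. Groups did not overlap for any of the family sums, though only narrowly for Adamts (338 against 341 TPM). The Timp and Mmp sums were higher with CX-5461 and the Adamts sum lower. Mmp14 and Mmp2 made up 79.99% and 80.1% of the summed Mmp TPM with CX-5461 and 79.1% and 79.7% with DMSO.

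Timp1, an inducible inhibitor that binds the membrane-type enzymes poorly, was the TIMP that rose. Timp1 (chromosome X, 20870166 to 20874735) was at 973 and 1006 TPM with CX-5461 and 696 and 608 TPM with DMSO. Both CX-5461 values were higher by a wide gap (log2 difference 0.60, SE 0.10, limma adjusted p = 0.0116). The call ended without CX-5461 replicate 2 (adjusted p = 0.111) or 3 (0.146), but held without DMSO replicate 2 (0.0107) or 3 (0.0214) and without the filter (0.0312). Its share of summed TIMP TPM was 24.3% and 24.9% with CX-5461 and 20.02% and 17.3% with DMSO. Timp1 lies within Syn1 on the opposite strand but shares none of its exons.

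Timp2, which both inhibits Mmp14 and holds the Mmp2 precursor to it for activation, was the most abundant of the 46 genes. It stood at 2123 and 2119 TPM with CX-5461 and 1848 and 1898 TPM with DMSO. The groups lay apart, but the difference of 0.18 did not pass (limma adjusted p = 0.186). Timp3, a matrix-bound inhibitor that also blocks ADAMTS and ADAM enzymes, stood at 901 and 921 TPM with CX-5461 and 932 and 1004 TPM with DMSO. Its difference of -0.09 did not pass (95% interval -0.29 to 0.12, adjusted p = 0.510). Timp3 shares 1733 exonic bases with Syn3 on the opposite strand, which was listed at 137 and 139 TPM with CX-5461 and 142 and 156 TPM with DMSO. Timp4 was near 0, at 0.00827 and 0.0337 TPM with CX-5461 and 0.124 and 0 TPM with DMSO, or at most 7.5 reads. With CX-5461 the mean of Timp1 (990 ± 23.6 TPM) lay above that of Timp3 (911 ± 14.0 TPM), whereas with DMSO Timp1 (652 ± 61.8 TPM) lay below Timp3 (968 ± 50.95 TPM), and the libraries of the genes did not overlap in either group.

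In order of level, 6 genes averaged 100 TPM or more over the 4 libraries: Timp2, Timp3, Timp1, Mmp14, Mmp2 and Adamts1. Of the 18 genes not tested, 9 were Mmp, 8 Adamts and 1 Timp. The 3 at 0 in every library were Mmp7, Mmp20 and Mmp21, and the highest value among the other 15 was 1.25 TPM, of Adamts17. Mmp25, a neutrophil enzyme with a lipid anchor, had 0.478 and 0.449 TPM with CX-5461 and 0.936 and 0.473 TPM with DMSO.

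Genes around the proteases were read from 7 lists, of which 88 genes were tested, 14 rose and 11 fell (28.4% called, beside 19.8% of all genes tested). Among 19 tested regulators and receptors, 3 rose and 2 fell (median -0.02), or 15.8% higher and 10.5% lower, near the 11.6% and 8.21% of all genes. Plau, the urokinase that starts the plasmin cascade by which many MMP precursors are activated, had 104 and 107 TPM with CX-5461 and 45.7 and 44.5 TPM with DMSO (log2 difference 1.21, limma adjusted p = 0.000931). Bsg, or EMMPRIN, a surface glycoprotein known as an inducer of MMPs in fibroblasts, had 1754 and 1783 TPM with CX-5461 and 1068 and 988 TPM with DMSO (0.78, adjusted p = 0.00385). Pcsk6, a proprotein convertase, rose as well (0.69, adjusted p = 0.00573), while the integrin subunit Itgb3 (-1.08) and the protease trap A2m (-1.37) fell. A2m was tested only through its DMSO libraries, since its CX-5461 mean was 0.699 TPM. Plau passed whichever library was left out. Bsg and Pcsk6 did not without CX-5461 replicate 2 (adjusted p = 0.0728 and 0.0683) or 3 (0.0867 and 0.0832).

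For Itgb3 the call ended without CX-5461 replicate 2 (adjusted p = 0.0722), DMSO replicate 2 (0.0631) or DMSO replicate 3 (0.0571), and for A2m without any library (0.0815, 0.121, 0.0803 and 0.0510, in the order CX-5461 replicates 2 and 3 and DMSO replicates 2 and 3). Reck, a membrane-anchored MMP inhibitor, did not pass at 44.7 and 38.0 TPM with CX-5461 and 43.1 and 40.6 TPM with DMSO (-0.02, limma adjusted p = 0.918). Furin, which activates Mmp11 and the membrane-type enzymes, stood at 68.3 and 72.9 TPM with CX-5461 and 77.7 and 71.8 TPM with DMSO (-0.08, adjusted p = 0.566). Lrp1, a receptor that clears MMPs and TIMPs from the medium, had 877 and 866 TPM with CX-5461 and 751 and 679 TPM with DMSO (0.29, adjusted p = 0.0730, and 0.0224 without DMSO replicate 2).

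Of 11 tested ADAM genes, 1 rose and 2 fell (median -0.03), or 9.09% higher and 18.2% lower, against 11.6% and 8.21% of all genes. Adam8 was higher, at 15.4 and 15.9 TPM with CX-5461 and 8.54 and 7.33 TPM with DMSO (0.90, limma adjusted p = 0.00817). Adam12 had 10.5 and 9.71 TPM with CX-5461 and 17.8 and 17.7 TPM with DMSO (-0.76, adjusted p = 0.00898), and Adam33 fell by 1.14 (adjusted p = 0.0192). The call of Adam8 ended without CX-5461 replicate 2 or 3 (adjusted p = 0.0728 and 0.0892), as did that of Adam12 (0.0660 and 0.0931). That of Adam33 ended without any library (0.0509, 0.113, 0.0793 and 0.0671, in the order above).

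Among the astacin proteases, Bmp1, the procollagen C-proteinase, was at 149 and 152 TPM with CX-5461 and 99.6 and 87.3 TPM with DMSO (0.69, limma adjusted p = 0.00741), the 1 of 4 tested that passed. Its call ended without CX-5461 replicate 2 (adjusted p = 0.0825) or 3 (0.101). Tll1, a related C-proteinase, did not pass (0.25, adjusted p = 0.140). None of 6 tested ADAMTS-like genes passed, the nearest being Adamtsl4 (0.37, adjusted p = 0.0640) and Thsd4 (-0.59, adjusted p = 0.0671).

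Of 22 tested substrates, 6 fell and 3 rose (median -0.20), or 27.3% lower and 13.6% higher, against 8.21% and 11.6% of all genes. The small proteoglycan genes Lum (log2 difference -1.03, limma adjusted p = 0.00131) and Dcn (-0.58, 0.0101) fell, as did the elastic fibre genes Eln (-1.65, 0.00316) and Fbn2 (-0.92, 0.00673). Col7a1, of anchoring fibrils, rose by 0.72 (0.0137). Lum and Eln passed whichever library was left out. Without CX-5461 replicate 2 or 3 the calls ended for Dcn (0.116 and 0.115), Fbn2 (0.0648 and 0.0874) and Col7a1 (0.107 and 0.112). Versican, Vcan, the substrate of Adamts1, Adamts4 and Adamts9, stood at 179 and 186 TPM with CX-5461 and 179 and 191 TPM with DMSO (adjusted p = 0.885). Acan, the gene of aggrecan, was at or under 0.243 TPM in every library.

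**Figure D4:**
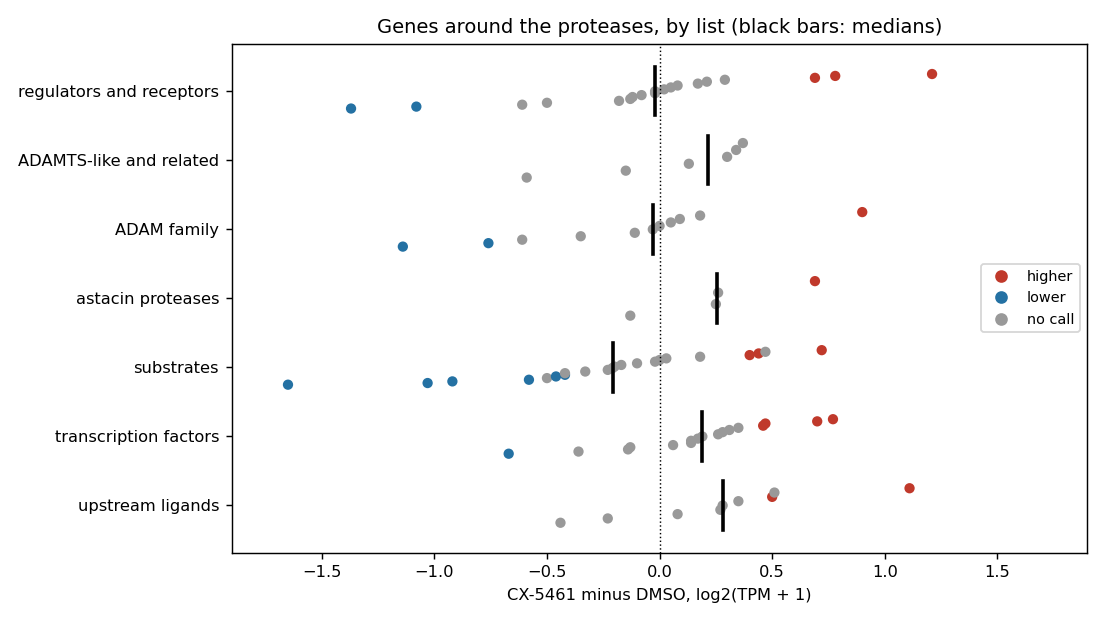
Difference of CX-5461 from DMSO in log2(TPM + 1) for the tested genes of 7 lists around the proteases, 1 point a gene. Red marks higher, blue lower and grey no call, and black bars are list medians. The medians lie between -0.20 for substrates and 0.28 for upstream ligands, with Eln at -1.65 and Plau at 1.21 as the outermost points.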

How the data were processed

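The authors deposited 1 table of TPM values, with 1 column per library, each summing to 1000000. Reads were cleaned on BMKCloud, per the labels' protocols, and the build was mm10, per the submitters' processing notes. Which aligner, counter, annotation and lengths were used is not given in the sources used here. Columns were matched to samples by treatment and replicate number in the titles, and 0 columns were left unused. TPM is relative: when abundant genes take more of a library, every other value drops.

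The test was limma 3.58.1 (R 4.3.3; eBayes with trend and robust, no covariate) on log2(TPM + 1) of genes averaging 1 TPM or more, with Benjamini-Hochberg adjustment over 14621 genes and 2 residual degrees of freedom. An exact permutation test of 2 against 2 libraries cannot go below p = 0.333 and was not used. On simulated data the fit recovered large changes, but made more false calls than its threshold promises. For read numbers, TPM was multiplied by exon length (GENCODE M21, symbols with 1 gene) and divided by the value of 1 read in that library, with 69.6% to 69.8% of values within 0.01 of a whole number.

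The members, lists and alternatives were chosen with earlier results of these data known. Values in every library were given for members that passed, for the TIMPs and for those with a group mean of at least 5 TPM. Other members were given by value or range. Per list, up to 5 genes that passed were named by their adjusted p (up to 2 where none passed), with Reck, Bsg, Lrp1 and Furin whatever their p; Comp, Vcan, Acan, Tll1, Jun and the inflammatory ligands were added after their values were seen. Python 3.11.15 was used for tables and matplotlib 3.10.9 for figures.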

Additional observations from a re-analysis of the deposited data

How the results depend on the processing

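The fit was repeated under 14 other settings, of which limma's voom on recovered reads was chosen after seeing the data. Each of the 11 called members kept its direction under every setting that gave it a value, and each passed with voom. The 5 higher and 6 lower members became 2 and 2 without the filter on low values, and with a filter of 5 TPM 3 were higher, since Mmp12 and Mmp24 were then not tested. Without the trend and robust options 2 were lower. Lower members numbered 7 or 8 under the 3 other scalings and 9 with voom. With 1 library left out, 1 to 3 members were higher and 1 to 2 lower (245 to 2087 and 379 to 899 over all genes tested), and of the genes of the lists around them 2 to 15 were higher (14 with all libraries) and 2 to 12 lower (11 with all libraries). With voom 23 of those genes were lower. Fewer libraries leave fewer residual degrees of freedom. For the changes without the filter, without the options and with voom the cause was not tested. Signs turned for Mmp14, from 0.01 to -0.05 under median-of-ratios scaling, -0.06 with quantiles or without the highest genes, and -0.04 with voom, and for Adamts1, from 0.05 to -0.01, -0.05, -0.02 and 0.00 in that order. With 1 library left out they ranged from -0.02 to 0.05 and from -0.03 to 0.14. With a replicate block 4 members were higher and 7 lower: Mmp24 did not pass (adjusted p = 0.0616) and Adamts10 did (0.0343). The replicate numbers were not shown to pair the libraries, since deviations of same-numbered libraries correlated at 0.0307 over genes. Genes under 20 reads a library are limited by depth.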

Other observations

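Lists of factors and ligands known to drive metalloprotease genes in other settings were read in the same way. Of 17 tested transcription factors, 4 rose and 1 fell (median 0.19, beside 0.07 for all genes tested), or 23.5% higher and 5.88% lower, against 11.6% and 8.21% of all genes. The AP-1 members Junb, at 186 and 212 TPM with CX-5461 and 131 and 114 TPM with DMSO, and Fosl1, at 40.3 and 47.0 TPM with CX-5461 and 21.8 and 29.1 TPM with DMSO, rose by 0.70 and 0.77 (limma adjusted p = 0.0113 and 0.0260). Fosl2 (0.47, adjusted p = 0.0251) and Cebpb (0.46, adjusted p = 0.0210) rose too, whereas the ETS factor Etv5 fell (-0.67, adjusted p = 0.0281). Jun, at 153 and 156 TPM with CX-5461 and 139 and 131 TPM with DMSO, did not pass (adjusted p = 0.153). Calls of Junb, Fosl1, Fosl2 and Cebpb ended without CX-5461 replicate 2 (0.0680, 0.0966, 0.154 and 0.105) or 3 (0.124, 0.178, 0.198 and 0.205). Those of Fosl1 and Etv5 also ended without DMSO replicate 2 (0.0525 and 0.0942), and those of Cebpb and Etv5 without DMSO replicate 3 (0.0519 and 0.0918). Etv5 did not pass without CX-5461 replicate 2 (0.138) or 3 (0.0521) either. Fosl1, Fosl2 and Etv5 did not pass without the filter on low values (0.0644, 0.0547 and 0.0671), nor, with Cebpb, without limma's trend and robust options (0.0607, 0.0650, 0.0637 and 0.0593).

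Of 9 tested ligands, 2 rose (22.2%, against 11.6% of all genes) and none fell. Pdgfa, a growth factor for fibroblasts, had 97.3 and 115 TPM with CX-5461 and 46.0 and 50.8 TPM with DMSO (log2 difference 1.11, limma adjusted p = 0.00306), and passed whichever library was left out. Tgfb3 had 174 and 168 TPM with CX-5461 and 118 and 124 TPM with DMSO (0.50, adjusted p = 0.0125), and did not pass without CX-5461 replicate 2 (0.137) or 3 (0.133). The inflammatory ligands Il1a, Il1b and Tnf were below 1 TPM in every library. Il6 had 1.36 and 1.59 TPM with CX-5461 and 0.761 and 0.712 TPM with DMSO. It did not pass (log2 difference 0.51, limma adjusted p = 0.2), though it did without the trend and robust options (0.0463). Il6 reached the test only through its CX-5461 libraries, since its DMSO mean was 0.737 TPM.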
